A study of Mus musculus with 6 samples.

Results

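The MYC and ribosome biogenesis genes were 40 genes fixed by name, namely MYC, its paralogs and partner, RNA polymerase I subunits, nucleolar proteins, ribosome assembly factors, and enzymes and initiation factors of protein synthesis. No measured value entered this rule, but the list was drawn up with earlier results of these data known. The study's own gene set analysis had placed MYC targets among the downregulated pathways. Of the 40, 39 were among the 27546 genes with an FPKM value (fragments counted on a gene, corrected for its length and for the depth of the library), Wdr74 was not analysed here, and 38 passed the filter on low values, which kept 14657 genes. Mycn, with a mean FPKM under 0.5, did not pass.

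RNA was sequenced from the colon of 3 Gm31629-/- mice and 3 littermate WT mice, all C57BL/6 and 8 weeks old, with 1 library per mouse. Gm31629 is a long noncoding RNA gene on chromosome 1, and the TetraOne method removed it in the whole animal, so that no single cell type carried the deletion alone. Both groups drank 3% dextran sodium sulfate (DSS), a detergent-like polymer that injures the colon lining, for 7 days and were sacrificed on day 8, and there were no untreated mice. The study's methods speak of pooled RNA, whereas the values come 1 column per mouse, and the 6 libraries were taken as separate mice. The comparison asked which genes differed between injured colons with and without Gm31629. The level of Gm31629 itself was not analysed here, so the deletion was not checked in these libraries.

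MYC is a transcription factor that pairs with MAX, binds the sequence CACGTG (the E-box) and related sites, and switches on genes for ribosome production and cell growth. Ribosomes are built mainly in the nucleolus, where RNA polymerase I copies the ribosomal RNA precursor, small nucleolar RNPs (snoRNPs) modify it, and assembly factors fold and cut it into the small and large subunits. In the gut this program is most active in the dividing cells of the crypts, which lie at the base of the lining and replace it after injury.

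The tissue itself differed between the groups. The libraries held 18005954 to 18795144 fragments. Epithelial markers were present in every library, and their summed FPKM ran from 13211 to 14434 in the WT group but from 8094 to 9585 in the Gm31629-/- group, with 8 of 15 called lower. Smooth muscle markers summed to 22.1 to 39.2 in WT mice against 1194 to 1839, and all 12 were called higher, as were all 10 fibroblast markers (24.1 to 44.8 against 235 to 681) and all 12 markers of neutrophils and macrophages (112 to 185 against 873 to 1700.3). Of enteric neuron and glia markers 10 of 11 tested were higher (2.85 to 5.43 against 42.6 to 146), with Elavl4, S100b and Sox10 listed at 0 in at least 1 library. T cell markers were higher in 7 of 10 (10.3 to 15.6 against 29.3 to 52.5) and B and plasma cell markers in 8 of 10 (219.9 to 224.7 against 395 to 645), with Tnfrsf17 at 0 in at least 1 library. The part of this difference in the values below was not tested, and in bulk tissue fewer cells of a type and less RNA per cell cannot be told apart. In 1 of 6 libraries, Gm31629-/- mouse 1, all 4 Y-linked genes checked were present and Xist was near 0, while the other 5 libraries showed the reverse. The study's methods name male mice, so 5 of 6 libraries went against the stated sex, and the 1 that did not was in the Gm31629-/- group. The part of sex in the values was not tested beyond leaving this mouse out. Without that mouse, 2 of 38 members were called lower (against 13.5% of all genes), in place of the 5 given further on (against 14.6%). The count was also 2 without Gm31629-/- mouse 3 or without WT mouse 1, and 1 without WT mouse 3. The drop was thus not particular to leaving out Gm31629-/- mouse 1.

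Promoter windows of 300 bases (250 before to 50 after the start site, RefSeq, GRCm38.p6) were searched for CACGTG, which reads the same on both strands. Of the 40 members, 33 had a window, and Bop1, Fbl, Myc, Npm1, Rrp12, Rrs1 and Srm had no entry. The motif lay in the windows of 9 of these 33 genes (27.3%), against 8.09% of 27025 genes and 7.15% of 32851 windows in all, and 11.4% of the 10366 tested genes with a window. The sites of Utp20, Pes1, Max, Nop2 and Mybbp1a, the holders of the motif with the smallest p in the genotype comparison, are printed below 5′ to 3′ on the gene's strand, with the motif in capitals.
Utp20, minus strand, chr10:88826765-88826789: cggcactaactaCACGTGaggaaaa
Pes1, plus strand, chr11:3963965-3963994: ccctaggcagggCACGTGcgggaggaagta
Max, minus strand, chr12:76962234-76962263: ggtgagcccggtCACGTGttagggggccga
Nop2, plus strand, chr6:125131811-125131840: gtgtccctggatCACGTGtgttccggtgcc
Mybbp1a, plus strand, chr11:72441355-72441376: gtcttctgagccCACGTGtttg
Counted from the RefSeq start site, the motif began 38 bases downstream in Utp20, 3 in Pes1 and 41 in Mybbp1a, and 3 bases upstream in Max and 60 in Nop2. For Max, unlike the other genes printed, the end of the window was not found in an annotated transcript. Its distance therefore holds for the RefSeq start site only. Eif4a1, Eif4e, Nme1 and Wdr43 also held the motif. The 9 genes with it had a median log2 fold change of -0.25, and 6 were negative. The 22 tested genes with a window but no motif had a median of -0.45, and 17 were negative. A match of letters is a description and not a measured binding site.

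On the FPKM scale, Myc and its paralog Mycl were called lower in Gm31629-/- colons, whereas the partner Max was not. Neither Myc nor Mycl was called on a scale set by epithelial markers, as given below. Myc (GRCm38, chr15:61985391-61990374, plus strand) had an FPKM of 21.2, 10.3 and 23.0 in WT mice 1 to 3 and of 5.92, 11.6 and 5.41 in Gm31629-/- mice 1 to 3. The means were 18.2 ± 6.84 and 7.64 ± 3.43 (SD, n = 3 each), and the log2 fold change on log2(FPKM + 1), Gm31629-/- minus WT, was -1.14 (SE 0.37, limma with Benjamini-Hochberg adjustment over 14657 genes, adjusted p = 0.0395). The groups overlapped for Myc, because Gm31629-/- mouse 2 was above WT mouse 2. Its call did not hold without the filter (adjusted p = 0.0755) or with the replicate number as a block (0.0868). The call was lost without Gm31629-/- mouse 1 (adjusted p = 0.0949) or mouse 3 (0.121) and without WT mouse 1 (0.122) or mouse 3 (0.138), and held without Gm31629-/- mouse 2 (0.0186) or WT mouse 2 (0.0189).

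Mycl (chr4:122995652-123002485, plus strand), which encodes the L-MYC paralog, had an FPKM of 3.20, 3.55 and 5.98 in WT mice and of 1.02, 1.97 and 1.71 in Gm31629-/- mice. Its log2 fold change was -1.01 (SE 0.25, adjusted p = 0.0169). Each Gm31629-/- mouse was below each WT mouse, and of the 6 fits that left out 1 mouse only that without WT mouse 3 lost the call (adjusted p = 0.0573).

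Mycn, the N-MYC paralog, was the lowest member, at 0.262, 0.421 and 0.242 in WT mice, against 0.709, 0.658 and 0.479 in Gm31629-/- mice. These values rest on 15 to 43 fragments per library. The groups did not overlap, with the Gm31629-/- mice higher, as for 36.3% of all tested genes. No test was run for this gene in the filtered table. In the limma fit without a filter its log2 fold change of 0.30 (SE 0.11) missed the threshold (adjusted p = 0.0936). Max, the obligate partner, stood at 62.9, 62.8 and 61.8 in WT mice and at 133, 69.4 and 92.3 in Gm31629-/- mice, the second of which was closest to WT. Its groups did not overlap either, but its log2 fold change of 0.59 (SE 0.23) missed the threshold (adjusted p = 0.0758). Without Gm31629-/- mouse 2 the change of Max was called (adjusted p = 0.0159, with a range of 0.0159 to 0.180 over the 6 fits that left out 1 mouse).

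**Figure D1:**
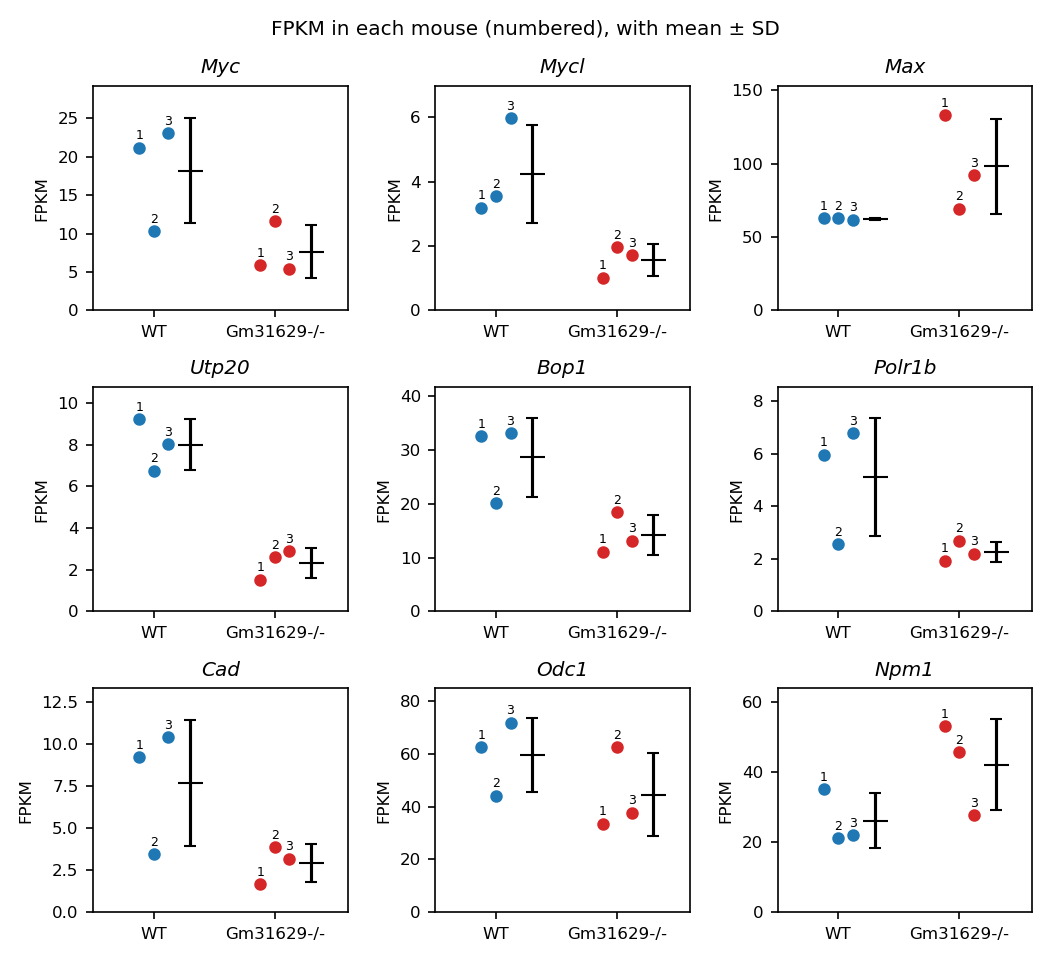
FPKM (vertical axis, linear from 0) of 9 members in WT mice (blue) and Gm31629-/- mice (red), numbered by mouse, with mean ± SD beside each group. Mycl, Utp20 and Bop1 show no overlap, Max is higher in all 3 Gm31629-/- mice, and in Myc, Polr1b and Cad WT mouse 2 lies among the Gm31629-/- mice while WT mice 1 and 3 lie above.

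Across the 38 members tested, 5 fell at an adjusted p under 0.05, namely Utp20, Mycl, Bop1, Pes1 and Myc, and none rose. This was 13.2% of members called lower, against 14.6% of all tested genes called lower and 28.9% called higher, so the share called lower was not above that of all genes. At an unadjusted p under 0.05, 10 members were lower (26.3%, against 18.9% of all genes) and 1, Max, was higher (against 33.9%). Of the 5 called members, Utp20, Myc and Mycl also passed a log2 fold change of -1 (7.89%, against 4.64% of all genes), and none was above 1 (against 18.4%). The groups did not overlap for 4 members that were lower, Mycl, Utp20, Bop1 and Pes1 (10.5%, against 21.5% of all genes), and for 1 that was higher, Max (2.63%, against 36.3%). With 3 against 3 mice an exact permutation test of a single gene cannot give a p below 0.10.

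The sign of the fold changes differed more from all genes than the calls did. Of the 38 members, 29 had a negative log2 fold change (76.3%, against 42.1% of all tested genes). Their median was -0.45, beside 0.15 over all tested genes, and the median level of the members varied between replicates with an SD of 0.38 on the same log2 scale. The largest negative value was that of Utp20 (-1.45) and the largest positive that of Npm1 (0.66). Under a scale set by epithelial markers the median of the members was 0.10, as given below.

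**Figure D2:**
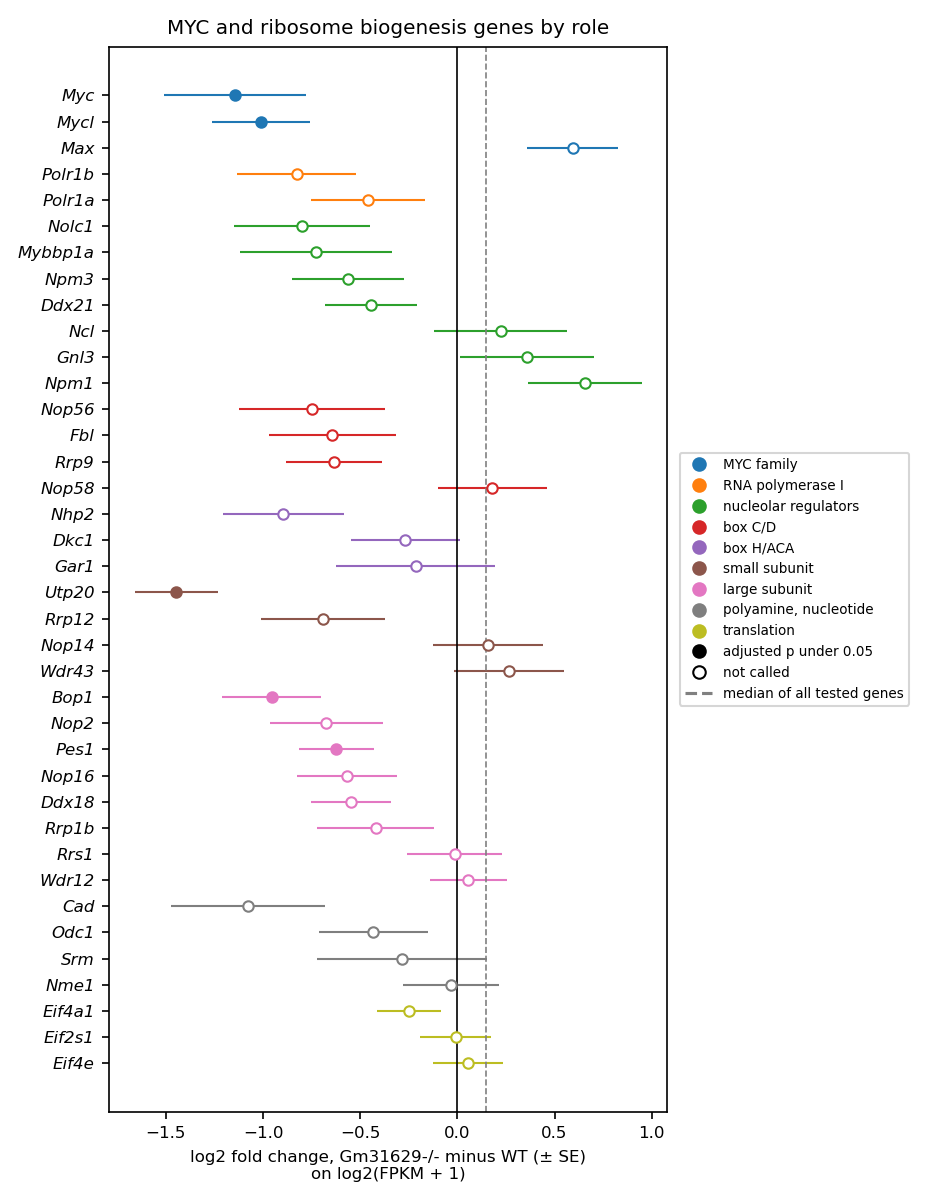
Log2 fold change on log2(FPKM + 1), Gm31629-/- minus WT, with SE, of the 38 members tested, coloured by role (filled, adjusted p under 0.05). The 5 filled points lie between -1.45 and -0.62, 29 points lie left of 0, and the dashed line is the median of all tested genes at 0.15. On a scale set by epithelial markers 12 points would lie left of 0.

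The members moved together from mouse to mouse, and the pattern did not follow genotype alone. WT mouse 2 had the lowest WT value in 35 of 38 members (92.1%, against 32.3% of all tested genes) and lay below the highest Gm31629-/- mouse in 34 (89.5%, against 71.5%). Gm31629-/- mouse 2 had the highest value of its group in 34 members (89.5%, against 44% of all genes). In 26 members WT mice 1 and 3 were both above every Gm31629-/- mouse (68.4%, against 26.4%). The median deviation of the members from their own mean was 0.45, -0.29 and 0.56 on the log2 scale in WT mice 1 to 3 and -0.36, 0.09 and -0.40 in Gm31629-/- mice 1 to 3.

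Markers of cycling cells also set WT mouse 2 below the other WT mice and Gm31629-/- mouse 2 above the rest of its group, but they did not overlap between the groups when summed. The summed FPKM of 12 such genes, among them Mki67, Top2a and Pcna, was 152, 73.3 and 139 in WT mice 1 to 3 and 39.3, 66.8 and 36.3 in Gm31629-/- mice 1 to 3. WT mouse 2 was the lowest WT mouse and Gm31629-/- mouse 2 the highest of its group for all 12, and 9 of the 12 were called lower. The part of cell division in the members' values was not tested.

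The number of members called depended strongly on single mice. Without WT mouse 2, 19 of 38 members were called lower (50%, against 11.2% of all genes), the median was -0.75 and 34 were negative. Without Gm31629-/- mouse 2, 7 were called lower (against 13.5% of all genes) and Max was called higher (against 26.1%). Only Mycl and Utp20 were called lower without Gm31629-/- mouse 1 (against 13.5%), without Gm31629-/- mouse 3 (against 11.4%) or without WT mouse 1 (against 8.63%), and only Utp20 without WT mouse 3 (against 6.69%). Npm1 was called higher without Gm31629-/- mouse 3 (against 28.8%). The choice of WT mouse 2 and Gm31629-/- mouse 2 for remark was made after their values were seen.

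**Figure D3:**
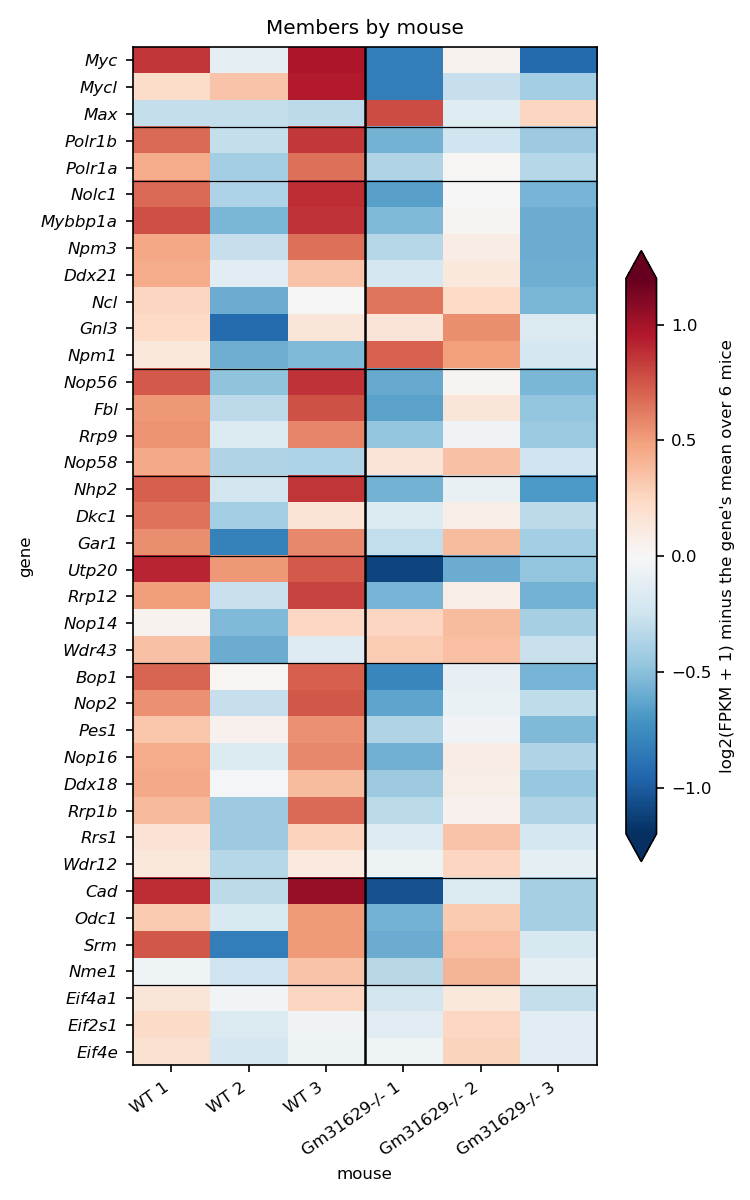
Deviation of log2(FPKM + 1) from each gene's mean over the 6 mice, for the 38 members tested (rows, grouped by role) in each mouse (columns), with blue below and red above the mean. WT mice 1 and 3 are red in most rows, WT mouse 2 is lowest of its group in 35 rows, and Gm31629-/- mouse 2 is highest of its group in 34.

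Both subunits of RNA polymerase I, which together form the catalytic centre of the enzyme, had negative log2 fold changes that missed the threshold. Polr1a had an FPKM of 3.24, 1.35 and 3.91 in WT mice and of 1.42, 2.14 and 1.46 in Gm31629-/- mice, with a log2 fold change of -0.46 (SE 0.29, adjusted p = 0.238). Polr1b had 5.97, 2.55 and 6.79 against 1.93, 2.69 and 2.20, with a log2 fold change of -0.83 (SE 0.31, adjusted p = 0.064). In both genes WT mouse 2 fell within or below the Gm31629-/- range and the other WT mice lay above it. Without WT mouse 2, Polr1b was called lower (log2 fold change -1.18, adjusted p = 0.0104, with a range of 0.0104 to 0.206 over these 6 fits).

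Of the 7 nucleolar chaperones and regulators, none was called, 4 were negative (against 42.1% of all tested genes) and 3 positive. Their median log2 fold change was -0.44. Nolc1, a phosphoprotein that accompanies snoRNPs, had an FPKM of 15.8, 7.12 and 18.5 in WT mice and of 5.70, 9.54 and 6.13 in Gm31629-/- mice (log2 fold change -0.80, SE 0.35, adjusted p = 0.103). Npm3, of the nucleoplasmin family, had 10.9, 6.13 and 12.6 against 5.81, 8.17 and 4.72 (-0.56, SE 0.29, adjusted p = 0.152). For both, WT mouse 2 lay inside the Gm31629-/- range. The helicase Ddx21 showed 16.6, 10.8 and 15.3 against 10.2, 13.0 and 7.59 (-0.44, SE 0.24, adjusted p = 0.166).

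Npm1 and Ncl had positive log2 fold changes that missed the threshold, unlike the negative values of Nolc1, Npm3 and Ddx21. Npm1 (nucleophosmin, a chaperone of nucleolar proteins and histones) had an FPKM of 35.2, 21.2 and 22.02 in WT mice and of 53.2, 45.6 and 27.7 in Gm31629-/- mice (0.66, SE 0.29, adjusted p = 0.107). Ncl (nucleolin, which binds the ribosomal RNA precursor) had 15.5, 8.11 and 12.8 against 20.5, 15.2 and 8.42 (0.22, SE 0.34, adjusted p = 0.626). In both genes Gm31629-/- mouse 1 was the highest of all 6 mice and the groups overlapped. Exons of Ncl hold an annotated snoRNA, as do those of Gnl3, Nop56, Nop58 and Eif4a1, so their fragments may be shared with it. The log2 fold changes of the remaining Mybbp1a and Gnl3 were -0.73 and 0.36.

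In the box C/D snoRNP, which guides methylation of ribosomal RNA, none of 4 members was called. Fbl, the methyltransferase fibrillarin, had an FPKM of 14.96, 7.96 and 17.96 in WT mice and of 6.16, 11.3 and 7.05 in Gm31629-/- mice (log2 fold change -0.64, SE 0.33, adjusted p = 0.147). The core protein Nop56 had 14.2, 5.54 and 15.6 against 4.98, 8.34 and 5.26 (-0.75, SE 0.38, adjusted p = 0.146). Rrp9, which serves early cleavage of the precursor, had 8.64, 4.92 and 8.998 against 3.80, 5.47 and 3.90 (-0.64, SE 0.25, adjusted p = 0.0737). These 3 genes had the same shape, with WT mice 1 and 3 above all others and WT mouse 2 below Gm31629-/- mouse 2. The other core protein, Nop58, had 2.48, 0.981 and 0.969 against 1.83, 2.25 and 1.15 (0.18, SE 0.28, adjusted p = 0.627), and only WT mouse 1 was above the Gm31629-/- mice.

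In the box H/ACA snoRNP, which converts uridine to pseudouridine, all 3 members were negative (against 42.1% of all tested genes) and none was called. Dkc1, the pseudouridine synthase dyskerin, had an FPKM of 4.51, 1.64 and 2.92 in WT mice and of 2.14, 2.68 and 1.82 in Gm31629-/- mice (log2 fold change -0.27, SE 0.28, adjusted p = 0.463). Its partner Gar1 had 6.75, 2.01 and 6.86 against 3.30, 5.85 and 2.99 (-0.21, SE 0.41, adjusted p = 0.695). Nhp2, the RNA-binding partner, was the most abundant of the class at 43.7, 22.3 and 48.3 against 17.4, 24.7 and 15.9 (-0.90, SE 0.31, adjusted p = 0.0518). WT mouse 2 was below all Gm31629-/- mice for Gar1 and Dkc1 and below only Gm31629-/- mouse 2 for Nhp2, which was called without WT mouse 2 (adjusted p = 0.0125, with a range of 0.0125 to 0.173 over these fits).

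Among small subunit factors, Utp20 stood apart from its class. Utp20 (chr10:88746607-88826804, minus strand), a scaffold of the small subunit precursor, had an FPKM of 9.22, 6.76 and 8.03 in WT mice and of 1.53, 2.59 and 2.89 in Gm31629-/- mice. The means were 8.00 ± 1.23 and 2.34 ± 0.717 (SD, n = 3 each), and the log2 fold change was -1.45 (SE 0.21, adjusted p = 0.00239). Every Gm31629-/- mouse was below every WT mouse, and WT mouse 2 was far above the highest Gm31629-/- mouse. Utp20 was called lower in all 6 fits that left out 1 mouse (adjusted p from 0.00316 to 0.0161), and was the only member called lower under every alternative tried.

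The other 3 small subunit factors were not called. Rrp12, needed for export and maturation of precursors, had an FPKM of 5.42, 2.76 and 6.96 in WT mice and of 2.09, 3.81 and 2.07 in Gm31629-/- mice (log2 fold change -0.69, SE 0.32, adjusted p = 0.118). Nop14 had 5.74, 3.54 and 6.74 against 6.79, 7.48 and 3.97 (0.16, SE 0.28, adjusted p = 0.676). Wdr43 had 7.87, 3.61 and 5.26 against 7.58, 7.95 and 4.78 (0.27, SE 0.28, adjusted p = 0.477). The groups overlapped for all 3, and WT mouse 2 was the lowest of the 6 mice for Nop14 and Wdr43.

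In the large subunit class, 2 of 8 tested members fell (25%, against 14.6% of all tested genes), with a median log2 fold change of -0.56. Negative values were found in 7 of the 8, against 42.1% of all tested genes. Bop1 (chr15:76452989-76477277, minus strand) and Pes1 (chr11:3963975-3980004, plus strand) are, with Wdr12, the parts of the PeBoW complex that processes large subunit RNA. Bop1 had an FPKM of 32.6, 20.2 and 33.1 in WT mice and of 11.1, 18.4 and 13.1 in Gm31629-/- mice, with a log2 fold change of -0.96 (SE 0.26, adjusted p = 0.0214). Pes1 had 16.6, 13.5 and 19.4 against 9.85, 12.6 and 8.66, with a log2 fold change of -0.62 (SE 0.19, adjusted p = 0.037). The groups did not overlap for either, although WT mouse 2 and Gm31629-/- mouse 2 lay close together. The third member, Wdr12, had a log2 fold change of 0.06 (SE 0.20, adjusted p = 0.838) at the low FPKM of 0.823, 0.307 and 0.797 against 0.591, 0.975 and 0.528.

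The calls of Bop1 and Pes1 each rested on single mice. For Bop1 the adjusted p was 0.053 without Gm31629-/- mouse 1, 0.0633 without mouse 3, 0.0763 without WT mouse 1 and 0.0861 without WT mouse 3. For Pes1 the same 4 fits gave 0.0755, 0.101, 0.101 and 0.136. Both were called without either mouse 2, with Bop1 at 0.0146 and 0.0155 and Pes1 at 0.0239 and 0.0389 for the Gm31629-/- and the WT mouse.

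The other large subunit factors were not called. Ddx18, an RNA helicase, had an FPKM of 14.5, 10.2 and 13.7 in WT mice and of 7.38, 10.9 and 7.26 in Gm31629-/- mice (log2 fold change -0.55, SE 0.21, adjusted p = 0.069). Nop2, which methylates cytosine in large subunit RNA, had 18.9, 10.2 and 21.8 against 7.78, 11.9 and 10.0 (-0.67, SE 0.29, adjusted p = 0.0973). Both had WT mouse 2 below Gm31629-/- mouse 2. Rrs1, a nucleolar assembly factor, was nearest to no difference of the class at 11.3, 7.08 and 12.2 against 8.81, 12.8 and 8.43 (-0.02, SE 0.24, adjusted p = 0.965). Nop16 and Rrp1b had log2 fold changes of -0.57 and -0.42.

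Of the polyamine and nucleotide enzymes, none of 4 was called and all were negative (against 42.1% of all tested genes). Cad, which carries the opening steps of pyrimidine synthesis, had an FPKM of 9.22, 3.44 and 10.4 in WT mice and of 1.68, 3.88 and 3.19 in Gm31629-/- mice (log2 fold change -1.08, SE 0.40, adjusted p = 0.0628). Odc1, ornithine decarboxylase at the rate-limiting step of polyamine synthesis, had 62.5, 44.1 and 71.6 against 33.5, 62.4 and 37.7 (-0.43, SE 0.28, adjusted p = 0.242). Srm, spermidine synthase, had 22.4, 6.84 and 18.9 against 8.22, 16.9 and 11.2 (-0.28, SE 0.44, adjusted p = 0.624). In each of these WT mouse 2 lay below Gm31629-/- mouse 2, and Cad was called lower without WT mouse 2 (log2 fold change -1.51, adjusted p = 0.0147, with a range of 0.0147 to 0.201 over these fits). Nme1, a nucleoside diphosphate kinase, had 1.16, 0.897 and 1.83 against 0.780, 1.96 and 1.06 (-0.03, SE 0.25, adjusted p = 0.924), with overlapping groups, and it shares 418 bases with the annotated gene Gm20390 on the same strand.

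None of the 3 translation initiation factors was called, and their median log2 fold change was -0.01. Eif4a1, the helicase that unwinds mRNA leaders, had an FPKM of 86.2, 76.2 and 93.4 in WT mice and of 66.7, 85.3 and 63.7 in Gm31629-/- mice (log2 fold change -0.25, SE 0.17, adjusted p = 0.255). Eif4e, which binds the mRNA cap, had 9.14, 6.76 and 7.54 against 7.61, 9.74 and 7.14 (0.05, SE 0.18, adjusted p = 0.824). Eif2s1, a subunit of the factor that brings the initiator tRNA, had 8.32, 6.07 and 6.72 against 6.22, 8.45 and 6.30 (-0.01, SE 0.18, adjusted p = 0.971). For all 3 the groups overlapped, and Gm31629-/- mouse 2 was again the highest of its group. Under settings described below, limma called Eif2s1 in opposite directions. It was lower with GC and length trends removed (-0.55, adjusted p = 0.0430) and higher on the scale set by epithelial markers (0.63, adjusted p = 0.0383). Eif4e was also called higher on that scale (0.70, adjusted p = 0.0235). A p that misses the threshold does not show that these genes had equal levels.

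The fold change of a member followed the GC content of its transcript. Over the 38 members Spearman's rho between the log2 fold change and the GC content of the longest annotated transcript was -0.62 (Pearson's r -0.57), beside -0.15 (Pearson's r -0.07) over 14647 genes. The points share the same 6 libraries and are not independent, so no p is given. All 19 members at or above the members' median GC content (51.1% to 59.9%) were negative, with a median log2 fold change of -0.67, against 10 of the 19 below it (40.4% to 50.8%), with a median of -0.01. The 9 positive members had a median GC content of 42.8% and the 29 negative ones of 52.4%. After a smooth trend of each library over GC content and length was removed, an alternative added after the data were seen, rho was -0.43, 8 members were called lower (against 21.2% of all genes) and the median was -0.57. The part of GC content in the members' values beyond this fit was not tested.

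**Figure D4:**
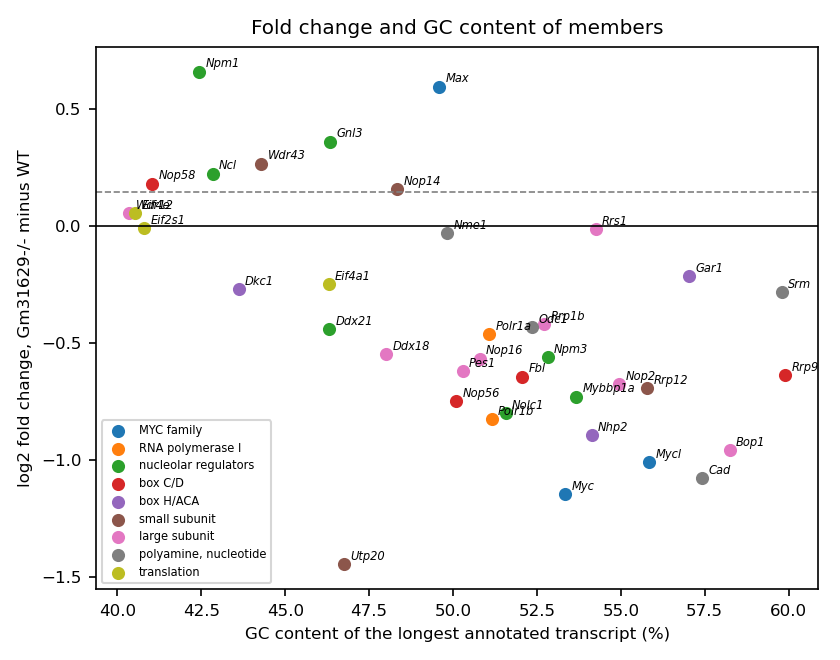
Log2 fold change on log2(FPKM + 1), Gm31629-/- minus WT, against GC content (%) of the longest annotated transcript for the 38 members, coloured by role. The members from 51.1% GC upward all lie below 0, while those under it lie on both sides; on a scale set by epithelial markers all points would shift upward.

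The direction of the members as a group depended on the scale. FPKM sets each library to a common depth, and on it the median of all tested genes was 0.15 and that of the members -0.45. With median-ratio scaling the medians were 0.02 and -0.60, and 12 members were called lower (31.6%, against 21% of all genes). With libraries scaled by 15 epithelial markers the medians were 0.70 and 0.10, only Utp20 was called lower (log2 fold change -0.86, adjusted p = 0.0171; 2.63%, against 2.76% of all genes), and Eif2s1, Eif4e, Gnl3, Max, Npm1 and Wdr43 were called higher (against 56.2%). Relative to the median of all genes, the members stood at -0.60, -0.62 and -0.60 on these 3 scales. Below it lay 31, 32 and 31 of the 38. Each scale multiplied a whole library by a single factor, which shifts nearly all genes alike. This distance could therefore hardly differ between the scales, and its likeness is not a separate result. Myc (-0.48, adjusted p = 0.327), Mycl (-0.49, adjusted p = 0.166) and Bop1 (-0.26, adjusted p = 0.464) kept a negative sign on the epithelial scale, while Pes1 turned to 0.06 (adjusted p = 0.851).

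Other settings changed the count of members called lower. limma's voom on fragments recovered from the FPKM values called 10 (26.3%, against 20.6% of all genes), with medians of -0.78 for the members and 0.01 for all genes. The count was 6 with a pseudocount of 0.1 (against 14.9%), 5 on the TPM scale (against 13.6%) and 5 without a variance trend (against 14.4%). It was 4 of 28 with a mean FPKM of at least 5 (against 21.1%) and 3 of 39 without a filter (against 6.72%). It was 2, Mycl and Utp20, with the replicate number as a block (against 10.3%). None of these settings called a member higher.

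Other genes of the same processes were called in both directions. Of 234 such genes in 8 lists, 231 were tested, of which 45 fell (19.5%, against 14.6% of all tested genes) and 24 rose (10.4%, against 28.9%), with a median log2 fold change of -0.17. The difference between these lists and the members was not tested. In all 8 lists the median was negative and above that of the 38 members. On the epithelial scale 2 of the 231 were lower and 91 higher, so the counts by direction below hold for the FPKM scale.

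Of 22 other MYC network genes, 4 fell (18.2%) and 2 rose (9.09%), with a median of -0.21. Tfap4, a transcription factor induced by MYC, fell from an FPKM of 10.003 ± 3.20 in WT to 2.77 ± 0.643 with the deletion (mean ± SD of 3 mice, log2 fold change -1.52, adjusted p = 0.0033). Bin1, an adaptor that binds MYC, rose from 5.46 ± 0.713 to 16.4 ± 2.76 (1.42, adjusted p = 0.00117). Fbxw7, the ubiquitin ligase component that marks MYC for breakdown, rose from 1.45 ± 0.177 to 3.07 ± 0.434 (0.73, adjusted p = 0.0109). For all 3 the groups did not overlap, as for 21.5% of all tested genes (lower) and 36.3% (higher). These genes were named for a small p, so the separation follows largely from the choice.

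Of 18 other RNA polymerase I genes, 3 fell (16.7%) and 4 rose (22.2%), with a median of -0.06. Polr1c, shared with RNA polymerase III, fell from 21.7 ± 2.07 to 11.7 ± 0.797 FPKM (log2 fold change -0.83, adjusted p = 0.00372), and Polr2e, shared by all nuclear RNA polymerases, from 23.2 ± 2.99 to 13.5 ± 0.470 (-0.73, adjusted p = 0.00669). Taf1a, of the promoter selectivity factor, rose from 2.004 ± 0.0160 to 5.42 ± 1.75 (1.06, adjusted p = 0.00817). Of 21 RNA polymerase III genes, 4 fell (19.0%) and 1 rose (4.76%), with a median of -0.18. Polr3c and Gtf3a fell by 0.77 and 0.72 on the log2 scale (adjusted p = 0.00954 and 0.00854), and Polr3gl rose by 1.00 (adjusted p = 0.00336). Subunits of 1 enzyme thus moved in both directions.

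Ribosome assembly genes outside the 40 were mostly not called. Of 11 snoRNP assembly genes only Tgs1, which modifies the snoRNA cap, passed the threshold (log2 fold change 0.70, adjusted p = 0.0218), while Shq1 and Nop10 had -0.45 and -0.42 (adjusted p = 0.0803 and 0.0933). Of 43 small subunit genes, 6 fell (13.95%) and 3 rose (6.98%), with a median of -0.17, among them Wdr36 (-0.92, adjusted p = 0.00527), Wdr46 (-0.94, adjusted p = 0.0122) and Tsr1 (-0.61, adjusted p = 0.0168), which fell, and Mphosph10 (0.92, adjusted p = 0.0191), which rose. Of 43 large subunit genes, 3 fell (6.98%) and none rose, with a median of -0.11, namely Ddx54 (-0.76, adjusted p = 0.00527), Ddx56 (-0.72, adjusted p = 0.0397) and Urb2 (-0.60, adjusted p = 0.0416), and the largest positive value, that of Gnl2 (0.60, adjusted p = 0.0516), missed the threshold. WT mouse 2 was the lowest WT mouse in 33 of the 43 small subunit, 38 of the 43 large subunit and 9 of the 11 snoRNP genes, against 32.3% of all genes. The count was 11 of 18 in the RNA polymerase I list, 22 of 33 among polyamine and nucleotide genes, 20 of 40 among translation factors, 9 of 22 in the MYC network and 8 of 21 in the RNA polymerase III list.

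Translation factors and metabolic enzymes held more calls than the ribosome assembly genes, in both directions. Of all tested genes, 14.6% were called lower and 28.9% higher. The shares called higher in these 2 lists were thus below that of all genes, and only the shares called lower were above it. Of 40 other initiation and elongation factors, 16 fell (40%) and 8 rose (20%), with a median of -0.37. Eif2b1, of the exchange factor that recharges the initiation factor bound to the initiator tRNA, fell from 24.7 ± 5.26 to 10.3 ± 0.847 FPKM (log2 fold change -1.17, adjusted p = 0.00289), and Eif4ebp2, a repressor of cap-dependent initiation, from 53.0 ± 6.395 to 27.2 ± 1.65 (-0.93, adjusted p = 0.00283). Eif4a2, the paralog of Eif4a1, rose from 32.7 ± 5.45 to 71.4 ± 5.31 (1.11, adjusted p = 0.00212), and Eif2s2 from 21.7 ± 5.53 to 79.6 ± 34.8 (1.78, adjusted p = 0.00493). For none of these 4 genes did the groups overlap, which follows largely from naming them by a small p or a large fold change.

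Of 33 other polyamine and nucleotide synthesis genes tested, 9 fell (27.3%) and 5 rose (15.2%), with a median of -0.27. Shmt1, a cytosolic enzyme of one-carbon metabolism, fell from 14.96 ± 4.42 to 1.79 ± 0.175 FPKM (log2 fold change -2.48, adjusted p = 0.000476). The antizyme Oaz2, which regulates polyamine synthesis, rose from 11.5 ± 1.53 to 29.9 ± 3.74 (1.31, adjusted p = 0.00123) and the antizyme inhibitor Azin2 rose from 0.429 ± 0.177 to 3.78 ± 0.859 (1.73, adjusted p = 0.000955). Ctps, which makes CTP, rose from 6.30 ± 2.64 to 29.3 ± 15.9 (2.001, adjusted p = 0.00834). In each of these 4 genes the groups were fully separate, which again follows largely from how they were picked.

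**Figure D5:**
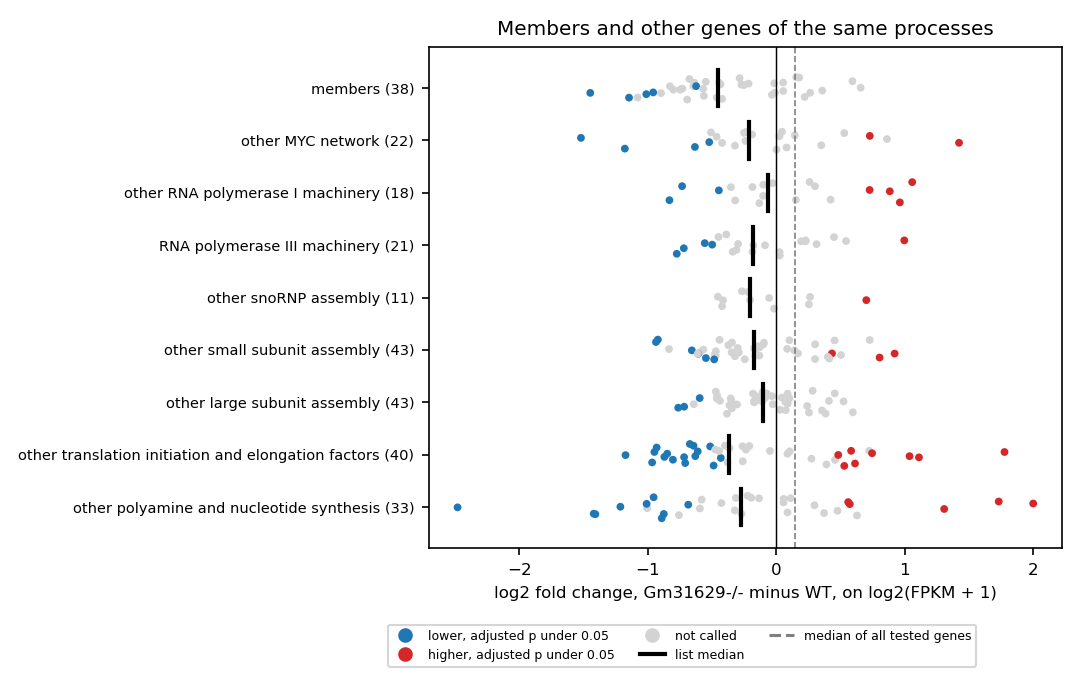
Log2 fold change on log2(FPKM + 1), Gm31629-/- minus WT, of the 38 members and of 8 lists of other genes of the same processes (rows, with the number tested), blue where called lower, red where called higher. The black bar is the list median, which is lowest for the members (-0.45), and the dashed line is the median of all tested genes (0.15); on a scale set by epithelial markers 91 of the 231 other genes would be red and 2 blue.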

How the data were processed

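The authors deposited FPKM values per gene, 1 column per mouse. The submitters' processing notes name HISAT2 2.1.0, HTSeq 0.6.0 and GRCm38, and whether counting used strand is not given in the sources used here. Samples were grouped by the genotype label. Symbols, lengths and positions came from GENCODE (GRCm38) and matched 27488 of 27546 genes. Whole fragments were recovered from the FPKM values: in each library 96.3% to 97.2% of the values of at most 20 fragments lay within 0.1 of a whole number, which gave 18005954 to 18795144 fragments per library. Counting error is only part of the error.

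The test ran on log2(FPKM + 1) of the 14657 genes whose FPKM averaged 0.5 or more, using the package limma (version 3.58.1, under R 4.3.3). A linear model was followed by moderated two-sided tests with a variance trend and Benjamini-Hochberg adjustment over all these genes. Fold changes on this scale understate changes of low genes. A gene was called at an adjusted p under 0.05, and counts past a log2 fold change of 1 or -1 were given beside it. The study's DEGseq needs counts and was not run. Each p-value sets the difference between the groups against the spread within them among these 6 libraries, moderated over all tested genes. The fit was tested on simulated data.

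The members and lists were chosen with earlier results of these data known. Every member of a class of up to 4 was described with its value in each mouse, and in larger classes the 4 with the smallest p and the 1 with the largest p. Wdr12 was added after its values were seen. In the other lists the 3 genes with the smallest p and the 1 with the largest fold change against the list's direction were named. Alternatives were the pseudocount, the filter, 3 other scales, the variance model, voom, the call rule, a replicate block, each mouse left out, and, added after the data were seen, removal of GC and length trends. Of the members, 14 overlap a gene on the other strand, over at most 7.08% of their length.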

Additional observations from a re-analysis of the deposited data

How the results depend on the processing

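Members called lower numbered 5 in the report (13.2%, against 14.6% of all genes). The count was 3 without a filter (against 6.72%), 12 with median-ratio scaling (against 21%) and 1 on the epithelial scale (against 2.76%). It was 10 with voom (against 20.6%) and 2 with the replicate block (against 10.3%). With GC and length trends removed it was 8 (21.1%, against 21.2%). It was 3 past the fold threshold (against 4.64%) and 10 at an unadjusted p under 0.05 (against 18.9%). With 1 mouse left out it was 1 to 19 (against 6.69% to 13.5%). Members called higher, 0 in the report (against 28.9%), came to 6 on the epithelial scale (against 56.2%) and 1 at an unadjusted p under 0.05 (against 33.9%). With 1 mouse left out they came to 0 to 1 (against 26.1% and 28.8% where it was 1). Over all genes, 2138 were lower, against 3076 (median ratio), 3024 (voom) and 3112 (GC and length). The count was 405 on the epithelial scale, 680 past the fold threshold and 981 to 1977 with 1 mouse left out. Of all genes, 4238 were higher, against 1405 at a mean FPKM of at least 5, 8237 on the epithelial scale, 2704 past the fold threshold and 2793 to 4219 with 1 mouse left out. In the lists of other genes, 45 were lower, against 69 (median ratio), 2 (epithelial), 70 (voom), 68 (GC and length), 8 (fold threshold) and 19 to 52 with 1 mouse left out. There, 24 were higher, against 15 (no filter), 13 (mean FPKM of at least 5), 91 (epithelial), 11 (GC and length), 8 (fold threshold) and 11 to 32 with 1 mouse left out.

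The members' median turned to 0.10 on the epithelial scale and was negative under every other alternative run. On that scale these log2 fold changes also turned positive: Polr1a 0.024, Npm3 0.082, Ddx21 0.23, Fbl 0.019, Dkc1 0.25, Gar1 0.37, Nop2 0.00082, Nop16 0.090, Pes1 0.056, Rrp1b 0.037, Rrs1 0.65, Ddx18 0.12, Srm 0.39, Odc1 0.28, Nme1 0.37, Eif4a1 0.47, Eif2s1 0.63 and Nop10 0.27. With GC and length trends removed, Ncl turned to -0.19, Nop58 to -0.37, Wdr43 to -0.014, Wdr12 to -0.54 and Eif4e to -0.49. Median-ratio scaling turned Wdr12 to -0.014 and Eif4e to -0.10, voom turned Eif4e to -0.11, and the TPM scale turned Eif2s1 to 0.00058. With 1 mouse left out, the sign changed within the ranges -0.044 to 0.55 (Ncl), -0.013 to 0.57 (Gnl3), -0.67 to 0.020 (Gar1), -0.067 to 0.39 (Nop14), -0.10 to 0.14 (Wdr12), -0.23 to 0.12 (Rrs1), -0.77 to 0.018 (Srm), -0.24 to 0.13 (Nme1), -0.065 to 0.16 (Eif4e) and -0.14 to 0.10 (Eif2s1). The cause of these changes was not tested.

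Same-numbered mice share only a number: the 3 same-numbered pairs had correlations of 0.04, -0.11 and 0.01, and 1 of 6 mice correlated best with its own number. With the replicate block the members called lower were 2, Mycl and Utp20. Mycn rests on 15 to 43 fragments per library.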
